A study of Mus musculus with 6 samples.

Results

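The genes described here are the 2 adaptor chains *Fcer1g* (Fc receptor gamma chain) and *Tyrobp* (DAP12), the tyrosine kinase *Syk*, the activating IgG receptors *Fcgr1*, *Fcgr3* and *Fcgr4*, the inhibitory IgG receptor *Fcgr2b*, and *Pirb*, an inhibitory immunoglobulin-like receptor, in hematopoietic stem cells (HSCs) with and without *Med23*. They are 8 of the 34745 genes in the tables. They were chosen by name as one signalling family, with their KO and WT levels in these same libraries already known, so the KO against WT values of these 8 genes are a description and carry no test.

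Activating Fc receptors and many related myeloid receptors have no signalling motif of their own. They pair in the membrane with a small adaptor, Fcer1g or Tyrobp, whose tail carries an immunoreceptor tyrosine-based activation motif (ITAM). Src family kinases phosphorylate the ITAM, Syk docks on it and passes the signal to scaffold proteins, phospholipase C gamma, phosphatidylinositol 3-kinase and the Card9-Bcl10-Malt1 complex. Fcgr2b and Pirb carry the inhibitory counterpart (ITIM), which recruits phosphatases. Receptors of this kind are best known from monocytes, macrophages, granulocytes, mast cells and natural killer cells.

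The bulk RNA-seq compared HSCs sorted as LSK CD150+CD34-CD48- cells from bone marrow of adult C57BL/6 mice, to ask what loss of *Med23*, a subunit of the Mediator coactivator complex, does to their transcripts. The 3 WT libraries came from mice labelled Med23floxp/flowp and the 3 KO libraries from mice labelled Mx1-cre;Med23floxp/flowp, so both groups carry the floxed allele and only the KO mice carry the recombinase. Mx1-cre is driven by an interferon-inducible promoter and is also active outside HSCs, and in the study's mice it was induced with poly(I:C). Neither the labels nor the methods say for these libraries whether the WT mice received poly(I:C), or whether each library came from its own animal, so the spread between libraries may be partly technical.

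Library totals were between 3537269 and 8131344 counts, so that 3 counts, used below as the smallest readable signal, corresponded to 0.367 to 0.923 CPM (normalized counts scaled to a common library size). *Med23* itself was at 47.4, 70.5 and 24.0 CPM in WT and at 31.5, 29.7 and 36.7 CPM in KO. The library labelled WT3 lay below all 3 KO libraries, and the log2 fold change of *Med23* was -0.54 (SE 0.41, adjusted p = 0.99, edgeR quasi-likelihood test), from -0.93 to -0.13 over the alternative settings. Exonic reads from outside the floxed part still count towards *Med23*, so this value is no full check of the deletion. Of 16 genes listed as HSC markers 15 were tested, and none passed the adjusted test by edgeR or DESeq2. The list also holds *Cd34*, *Cd48* and *Flt3* (CD135), whose proteins mark cells that the study's HSC gates leave out. At an unadjusted p under 0.05, 2 were higher and 3 lower in KO, beside 2.94% and 2.77% of all 12513 genes tested. In CPM, *Kit*, *Ly6a*, *Hlf* and *Esam* were lower and *Mecom* and *Cd34* higher in all KO libraries than in any WT library, an order that 6.25% (higher) and 6.15% (lower) of all genes tested showed. *Slamf1*, which encodes the sort marker CD150, was at 96.4, 90.6 and 20.9 CPM in WT and 37.1, 58.0 and 27.4 CPM in KO. *Cd48* was at 10, 28 and 0 counts in WT and at 0 in KO. The library labelled KO3 stood apart from the others by its transcripts of the primary granule enzymes *Mpo*, *Elane* and *Ctsg*. *Mpo* was at 867 counts in it and at 23 or fewer in the other 5, *Elane* at 115 against 10 or fewer, and *Ctsg* at 83 against 7 or fewer. *Prtn3*, another primary granule protease, did not set KO3 apart from the other KO libraries. It was at 82.7, 141 and 86.2 CPM in WT and at 303, 306 and 354 CPM in KO. Values of the members, and medians of gene lists, that move with KO3 or WT3 are given with and without them.

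The stretches of reference genome just upstream of the members are shown for *Pirb* and *Fcgr1*, whose RNA was near or at 0 in WT and read in every KO library, for *Fcgr4*, read in 1 library only, and for *Fcer1g*, the most abundant adaptor. Each is the 250 bases before the gene's RefSeq start (build GRCm38.p6), written 5′ to 3′ on the gene's own strand: chr7:3720383-3720632 (minus strand) for *Pirb*, chr3:96293970-96294219 (minus) for *Fcgr1*, chr1:171018676-171018925 (plus) for *Fcgr4* and chr1:171234350-171234599 (minus) for *Fcer1g*. Capitals mark GAGGAA, the core of sites for the myeloid ETS factor PU.1, on either strand (TTCCTC on the other), and TTCNNNGAA, the GAS element bound by STAT factors downstream of interferon gamma.
Pirb: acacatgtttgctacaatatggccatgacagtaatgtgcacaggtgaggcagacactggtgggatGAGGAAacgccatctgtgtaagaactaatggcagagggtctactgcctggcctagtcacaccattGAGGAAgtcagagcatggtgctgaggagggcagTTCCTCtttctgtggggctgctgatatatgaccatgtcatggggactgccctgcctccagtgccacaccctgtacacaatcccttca
Fcgr1: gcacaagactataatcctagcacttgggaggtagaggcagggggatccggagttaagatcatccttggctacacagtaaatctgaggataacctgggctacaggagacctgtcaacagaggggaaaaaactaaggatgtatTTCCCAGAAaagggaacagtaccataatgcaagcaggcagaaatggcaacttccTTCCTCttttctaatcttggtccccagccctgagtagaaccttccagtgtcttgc
Fcgr4: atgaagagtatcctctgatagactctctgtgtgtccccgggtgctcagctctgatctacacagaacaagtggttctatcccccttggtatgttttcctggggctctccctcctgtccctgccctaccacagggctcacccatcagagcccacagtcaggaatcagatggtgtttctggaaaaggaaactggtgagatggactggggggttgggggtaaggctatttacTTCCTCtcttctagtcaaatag
Fcer1g: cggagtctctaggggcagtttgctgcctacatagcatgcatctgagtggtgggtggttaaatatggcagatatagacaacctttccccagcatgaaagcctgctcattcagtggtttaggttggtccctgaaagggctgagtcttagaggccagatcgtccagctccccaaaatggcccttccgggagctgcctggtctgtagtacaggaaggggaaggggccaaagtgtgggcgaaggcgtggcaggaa

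The *Pirb* window held the PU.1-type core 3 times, with first bases at -185, -120 and -87 from the start. The *Fcgr1* window held it once at -55, together with a GAS match at -109, and the *Fcgr4* window held it at -22. Of the other members, *Fcgr3* carried the core at -6 and -15 from its 2 overlapping starts, and *Syk* at -9 from the second of its 2 starts but not upstream of the first, a GC-rich window (71.6% G and C). Neither the *Fcer1g* nor the *Fcgr2b* window held a match. In all, 6 of the 9 windows of 7 members carried the core on either strand, and 23.3% of 32851 windows of the same length over all genes carried it. The 2 *Fcgr3* windows overlap and hold the same match, so that site is counted again. By gene, 5 of the 7 members had the core in at least 1 window. *Syk* and *Fcgr3* have 2 windows each, and a share by gene was not computed over all genes. The 23.3% of windows is therefore no background for that count. For the GAS element the numbers were 1 of 9 windows and 7.02%. A site for Egr factors, GCGTGGGCG on either strand, was in none of the members' windows and in 0.536% of all. A match is a run of letters and was not tested for binding.

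**Figure D1:**
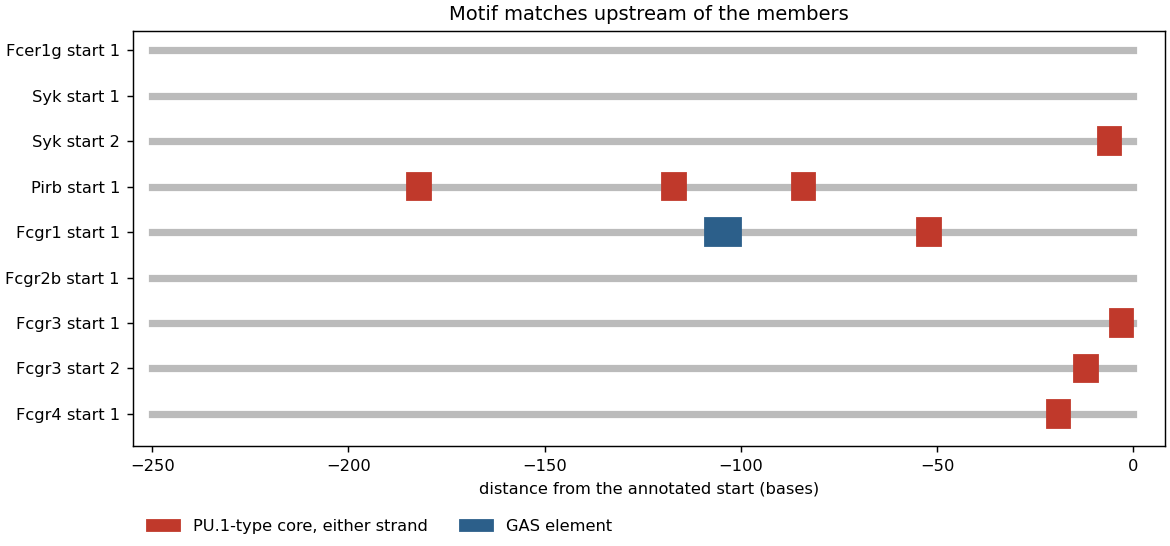
Positions of the motif matches in the 250 bases before each annotated start of 7 members, with the distance from the start in bases on the horizontal axis and a row for each of 9 windows. Red boxes are PU.1-type cores on either strand and the blue box is a GAS element; *Pirb* holds 3 cores, *Fcgr1* holds 1 of each, and *Fcer1g* and *Fcgr2b* hold none.

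Taking the 8 members together, 6 passed the filter on low counts and 2, *Fcgr1* and *Fcgr4*, did not. *Fcer1g*, *Tyrobp*, *Fcgr1* and *Pirb* had all 3 KO libraries above all 3 WT libraries, while the groups overlapped for *Syk*, *Fcgr2b*, *Fcgr3* and *Fcgr4*. Among all 12513 genes tested, 6.25% had every KO library above every WT library and 6.15% every KO library below. Among the 6 members that passed the same filter the count was 3 higher and 0 lower. Nothing is read from that count, because the contrast was known when the members were chosen. In bulk libraries, more cells of a type and more RNA per cell cannot be told apart.

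**Figure D2:**
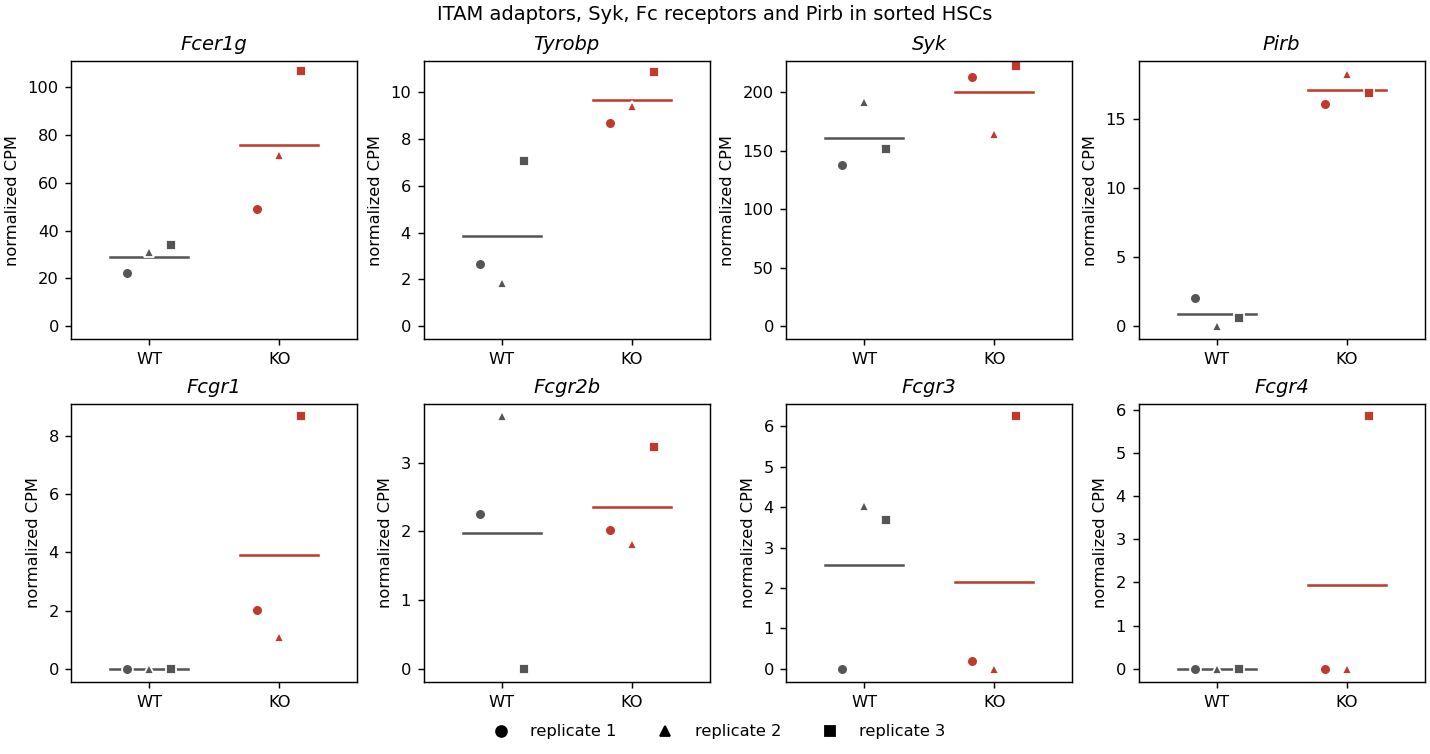
Level of each member in the 6 libraries, in CPM scaled by TMM on linear axes, with WT in grey and KO in red, a symbol for each replicate and a line at the group mean. *Fcer1g*, *Tyrobp*, *Pirb* and *Fcgr1* have all 3 KO libraries above all 3 WT libraries, and for *Fcgr1*, *Fcgr3* and *Fcgr4* the highest point is KO3.

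*Fcer1g*, the adaptor of the high-affinity IgG and IgE receptors (chr1:171229572-171234365, minus strand, GRCm38), had 108, 255 and 110 counts in WT and 242, 394 and 529 in KO. In CPM this was 22.1, 31.2 and 33.9 in WT, or 29.0 ± 6.19 (SD, n = 3), against 48.8, 71.5 and 106.6 in KO, or 75.6 ± 29.1 (SD, n = 3). The groups did not overlap, the lowest KO library being 1.44 times the highest WT library. KO libraries spread further from one another than WT libraries did, with a coefficient of variation of 38.5% against 21.3%. The log2 fold change, KO over WT, was 1.38 (SE 0.37), a 2.61-fold difference, and it lay between 1.06, without KO3, and 1.62, without KO1. Per length, *Fcer1g* was at 14.2, 19.5 and 19.4 FPKM in WT, a mean above 76.4% of the genes tested, and at 31.7, 46.5 and 64.2 FPKM in KO, above 91.9% of them. It was therefore read well above the detection limit in WT HSCs too.

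*Tyrobp*, the adaptor of Trem, Clec5a and activating natural killer receptors (chr7:30413760-30417585, plus strand), was lower in counts. It had 13, 15 and 23 counts in WT and 43, 52 and 54 in KO, or 2.66, 1.84 and 7.08 CPM against 8.68, 9.43 and 10.9 CPM. The group means were 3.86 ± 2.82 and 9.66 ± 1.12 CPM (SD, n = 3 each). All KO libraries were above all WT libraries, by 1.23 times at the nearest pair, and WT3 was the WT library closest to KO. The log2 fold change was 1.34 (SE 0.81), 0.99 without WT2 and 2.10 without WT3, the library with the lowest *Med23*. At these counts the estimate rests on few reads per library. Per length, *Tyrobp* was at 4.85, 3.27 and 11.5 FPKM in WT and at 16.0, 17.5 and 18.7 FPKM in KO, so that its mean stood above 49.9% of tested genes in WT and above 75.1% in KO.

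The relation between the adaptors was not the same in every library. *Fcer1g* exceeded *Tyrobp* in FPKM by 2.92, 5.97 and 1.68 times in WT and by 1.98, 2.66 and 3.44 times in KO, so the ratio overlapped between groups and *Fcer1g* was the higher of the 2 in all 6 libraries. This order held with exon lengths from the GENCODE M21 annotation in place of those behind the FPKM table. The annotation gives 874 bases for *Fcer1g* where the table used 1605, and 667 for *Tyrobp* where the table used 564, which raised the ratio to between 3.65 and 13.0. Within groups the pair shared little of its variation: the deviations from the group means, in log2 CPM, had a Pearson r of 0.353 over 6 libraries, given as a description.

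*Syk* (chr13:52583173-52648792, plus strand), the kinase that binds phosphorylated ITAMs, was expressed in all libraries, with groups that overlapped. It had 676, 1568 and 493 counts in WT and 1058, 906 and 1104 in KO, or 138.1, 191.9 and 151.7 CPM against 213.4, 164.3 and 222.5 CPM. The group means were 160.6 ± 28.0 and 200.1 ± 31.3 CPM (SD, n = 3 each), and KO2 lay below WT2. The log2 fold change was 0.32 (SE 0.22), between 0.21 and 0.47 over the alternatives. In FPKM *Syk* was at 10.4, 14.1 and 10.2 in WT and at 16.3, 12.6 and 15.8 in KO.

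Set against the kinase, the adaptor *Fcer1g* was 1.36, 1.38 and 1.90 times as high as *Syk* in FPKM in WT and 1.95, 3.70 and 4.08 times as high in KO, with KO1 close to WT3. With M21 exon lengths these ratios were 1.71, 1.74 and 2.39 in WT and 2.45, 4.66 and 5.13 in KO. *Tyrobp* was at 0.465, 0.232 and 1.13 times the FPKM of *Syk* in WT and at 0.984, 1.39 and 1.18 times in KO. Whether *Tyrobp* or *Syk* was the higher in KO depended on the length used, because M21 lengths put *Tyrobp* at 0.570, 0.806 and 0.687 times *Syk*.

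The IgG receptors that use the gamma chain were read at low counts, and mostly in KO3. *Fcgr1* (CD64, the high-affinity IgG receptor, chr3:96282909-96293969, minus strand) had 0 counts in all 3 WT libraries and 10, 6 and 43 counts in KO, or 2.02, 1.09 and 8.67 CPM. Every KO library was above the 3-count limit and no WT library had a read. With each WT library set at 3 counts, the KO mean of *Fcgr1* was 6.19 times the WT mean, and 2.45 times without KO3. KO3 held 43 of its 59 counts, and KO2, at 1.09 CPM, lay close to the 0.923 CPM that 3 counts make in WT3. These ratios are no firm lower bound. A low gene can have 0 counts in a single library and more in others of its group, as *Fcgr2b* did (11, 30 and 0 in WT).

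*Fcgr4* (chr1:171018920-171029761, plus strand), the receptor for IgG2 subclasses on monocytes and neutrophils, had 29 counts in KO3 and 0 in each of the other 5 libraries. *Fcgr3* (CD16, chr1:171051174-171064935, minus strand), a low-affinity activating receptor, had 0, 33 and 12 counts in WT and 1, 0 and 31 in KO. It was thus at or near 0 in 1 WT and 2 KO libraries, and the groups overlapped. Its log2 fold change of -0.26 had an SE of 1.74 and went from -4.42 without KO3 to 0.32 without KO2. A direction for *Fcgr3* was not detectable at this depth.

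*Fcgr2b* (CD32B, chr1:170958617-170976547, minus strand), the ITIM-bearing IgG receptor, had 11, 30 and 0 counts in WT and 10, 10 and 16 in KO, or 2.25, 3.67 and 0 CPM against 2.02, 1.81 and 3.23 CPM. The groups overlapped, with a log2 fold change of 0.21 (SE 1.28) that ran from -0.62 without replicate 3 of both groups to 1.01 without WT2. The antisense gene *Gm38204* overlaps *Fcgr2b*, and the counting is not stated to use strand, so reads of the 2 cannot be told apart. *Gm38204* itself had 0 counts in every library. The microRNA gene *Mir6546* overlaps *Fcgr3* and the small nuclear RNA gene *Gm26110* overlaps *Fcgr4*. Both lie on the same strand as the receptor gene, where strand could not separate the reads. *Fcgr2b*, *Fcgr3* and *Fcgr4* lie near one another on chromosome 1 and resemble one another in sequence, so reads could also be shared or lost between them.

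Summed over the 4 Fcgr genes, the libraries held 11, 63 and 12 counts in WT and 21, 16 and 119 in KO. Per depth that was 2.25, 7.71 and 3.69 CPM against 4.24, 2.90 and 24.0 CPM, so that KO1 and KO2 fell within the WT range and KO3 above it. *Fcgr2b* made up 47.6%, 62.5% and 13.4% of these counts in KO1, KO2 and KO3, and its share in WT1, WT2 and WT3 ran over the whole range, at 100%, 47.6% and 0%. KO3 is also the library with most *Mpo*, *Elane* and *Ctsg*, and with most *Adgre1*, the macrophage marker F4/80 (0, 0 and 0 counts in WT and 2, 11 and 20 in KO). *Csf1r*, the M-CSF receptor, had 0, 13 and 39 counts in WT and 0, 19 and 10 in KO, and *Cd14* had 3 counts in WT1 and 0 elsewhere. The part of such cells in the Fcgr counts was not tested.

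**Figure D3:**
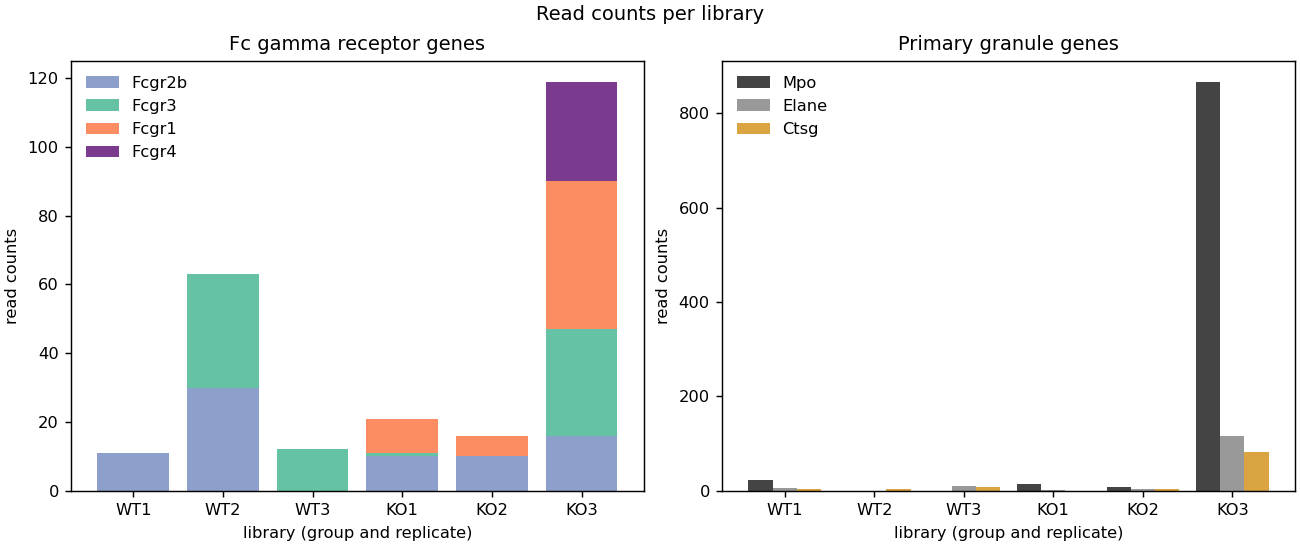
Read counts per library, on linear axes from 0, of the 4 Fcgr genes stacked (left) and of the primary granule genes *Mpo*, *Elane* and *Ctsg* side by side (right). *Prtn3*, another primary granule gene and higher in every KO library than in any WT library, is not shown. KO3 has the highest bars in both panels, with 119 Fcgr counts and 867 *Mpo* counts; *Fcgr4* appears in KO3 alone and *Fcgr1* in the KO libraries alone.

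*Pirb* (chr7:3711409-3720391, minus strand), the ITIM receptor for MHC class I that is found on B cells and myeloid cells, had the widest difference of the members that passed the filter. It had 10, 0 and 2 counts in WT and 80, 101 and 84 in KO. In CPM the WT libraries were at 2.04, 0 and 0.616, or 0.886 ± 1.05 (SD, n = 3), and the KO libraries at 16.1, 18.3 and 16.9, or 17.1 ± 1.10. The KO libraries lay close together and the lowest of them was 7.90 times the highest WT library. KO3 was not the highest, so *Pirb* did not follow the pattern of the Fcgr genes across the KO libraries. The log2 fold change was 4.29 (SE 1.12), a 19.6-fold difference, and depended on 1 library, WT1, which held 10 of the 12 WT counts: it was 6.16 without WT1. On log2(FPKM + 1), a scale that compresses low genes, it was 1.56. Even in KO, *Pirb* stayed at a modest level per length, at 2.19, 2.49 and 2.13 FPKM against 0.274, 0 and 0.0737 FPKM in WT.

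*Pirb* belongs to a cluster of activating Pira genes with nearly the same extracellular sequence, whose products signal through Fcer1g. Of the Pira genes looked up, only *Pira2* was found. *Pira1*, *Pira6*, *Pira7* and *Pira11* had no entry under those names, so their levels are unknown. *Pira2* had 0, 1 and 16 counts in WT and 11, 7 and 18 in KO, and its groups overlapped (log2 fold change 0.57, SE 1.57). *Lilra6* had 8 counts in WT2 and 0 elsewhere. How reads that match several of these genes were assigned was not stated, so the *Pirb* count is uncertain to that extent.

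The other genes of the pathway were read from 7 lists written with earlier results of these data known. Of 125 genes in the tables, 64 were tested, and none passed the edgeR test at an adjusted p of 0.05, where 0.0719% of all genes tested did (9 genes). DESeq2 called 3 of them, *Fyb*, *Lat2* and *Clnk*, and 0.959% of all genes. At an unadjusted p under 0.05, 6 of the 64 were higher and 1 was lower in KO, where 2.94% of all genes tested were higher and 2.77% lower. Without overlap between groups, 7 of 64 were higher and 2 lower, where 6.25% of all genes tested were higher and 6.15% lower. The estimates of 48 of the 64, or 75%, lay above 0, with a median log2 fold change of 0.27, where 49.5% of all genes lay above 0 around a median of -0.01. Without KO3 the count was 51 of 68 and without WT3 it was 48 of 69. No test was made of the lists as sets.

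**Figure D4:**
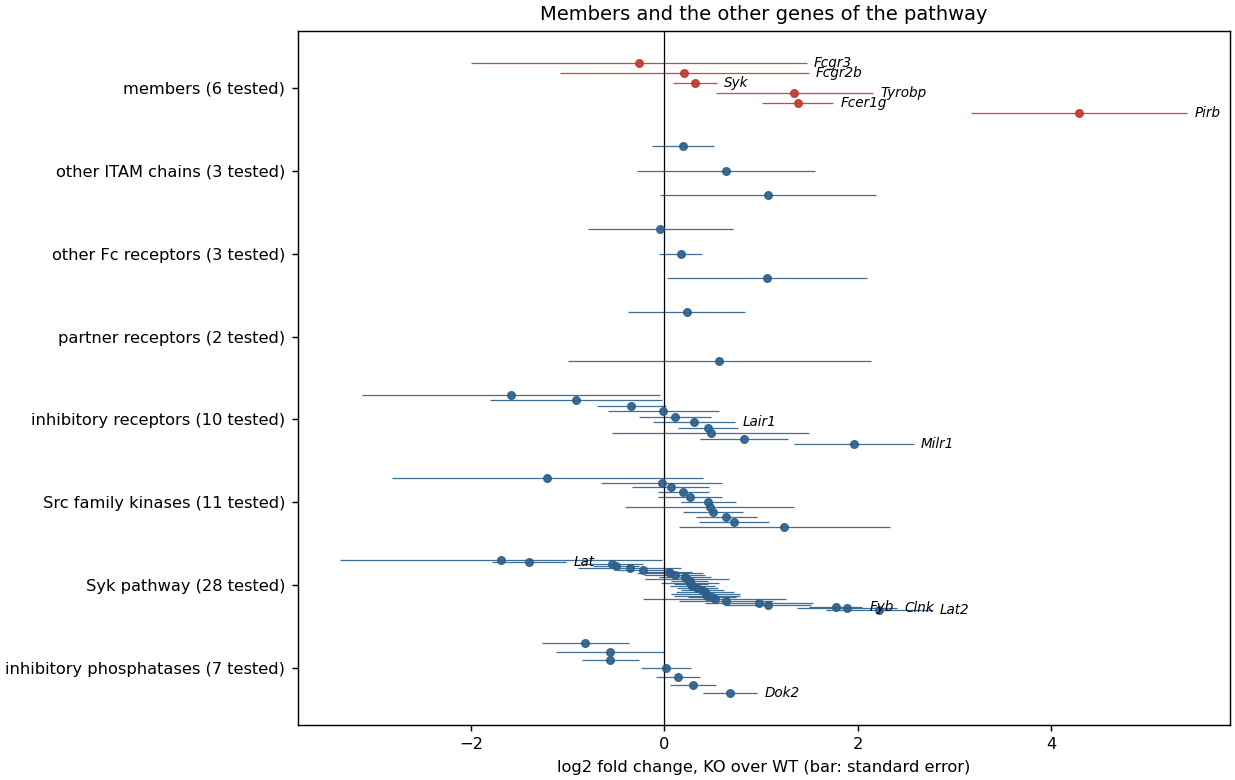
Log2 fold change, KO over WT, with its standard error for the 6 members that passed the filter (red) and for the 64 other pathway genes tested (blue), a row of points for each list. *Pirb*, *Tyrobp* and *Fcer1g* are the members farthest to the right, and of the other genes *Lat2*, *Milr1*, *Clnk* and *Fyb* have the highest estimates.

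The other signal chains were few. Of 11 genes, 4 were at 0 in all libraries, among them the T cell receptor chains *Cd3d*, *Cd3e* and *Cd3g*, and 3 were tested, with none past an unadjusted p of 0.05 and no separation of the groups. *Cd79b*, the B cell receptor chain, had 185, 488 and 220 counts in WT and 258, 349 and 363 in KO. *Hcst*, which encodes DAP10, an adaptor without an ITAM that lies 127 bases from *Tyrobp*, had 13, 21 and 23 counts in WT and 14, 38 and 46 in KO (log2 fold change 0.64, SE 0.92, edgeR adjusted p = 0.997). *Cd247*, the zeta chain, had 24, 35 and 2 counts against 46, 5 and 54.

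The ligand-binding receptors that need Fcer1g or Tyrobp were largely missing. Of the 26 partner receptors in the tables, 17 were at 0 in all libraries, *Trem1*, *Trem2* and *Trem3* among them, and 2 were tested, *Pira2* and *Clec4e* (Mincle, a receptor for mycobacterial glycolipid). *Clec4e* had 49, 72 and 99 counts in WT and 143, 74 and 75 in KO, with overlapping groups and a log2 fold change of 0.23. Of the 13 other Fc receptor genes, 9 were at 0 in all, including *Fcer1a*, the IgE-binding chain. The neonatal receptor *Fcgrt*, which transports IgG and albumin and uses no adaptor, was the one read at high counts (534, 732 and 365 in WT, 569, 676 and 554 in KO; log2 fold change 0.17).

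Upstream of the ITAM, 11 of the 13 Src family kinases and their regulators were tested. Of these, 9 had estimates above 0, with a median log2 fold change of 0.46, and none passed an unadjusted p of 0.05 or separated the groups. *Lyn*, the main Src family kinase of myeloid and B cells, had 317, 629 and 394 counts in WT and 474, 761 and 874 in KO (log2 fold change 0.64). *Zap70*, the relative of *Syk* in T cells, was at 0 in all libraries.

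Downstream of Syk, 28 of 32 genes were tested, 22 with estimates above 0 and a median of 0.29, and 5 of them had all KO libraries above all WT libraries and 2 had them below, beside 6.25% and 6.15% of all genes tested. The adaptors at the top were *Fyb*, which links Lcp2 to integrin activation, with 178, 447 and 126 counts in WT and 653, 756 and 872 in KO (log2 fold change 1.77, edgeR adjusted p = 0.065, DESeq2 adjusted p = 3.02e-06), and *Lat2*, the scaffold of myeloid and mast cells, with 14, 53 and 21 counts against 142, 100 and 135 (log2 fold change 2.22, edgeR adjusted p = 0.36, DESeq2 adjusted p = 0.027). *Clnk*, a mast cell relative of Lcp2, had 85, 42 and 30 counts in WT and 240, 173 and 186 in KO (log2 fold change 1.89, edgeR adjusted p = 0.42, DESeq2 adjusted p = 0.049). *Lat*, the T cell and platelet scaffold, went the other way, with 160, 374 and 181 counts in WT and 100, 89 and 72 in KO (log2 fold change -1.40, edgeR adjusted p = 0.43, DESeq2 adjusted p = 0.074). Each of these 4 separated the groups, and none passed the edgeR test.

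On the inhibitory side, the ITIM receptors other than *Fcgr2b* and *Pirb* gave 10 tested genes of 22, with a median log2 fold change of 0.21, which was -0.07 without WT3. *Milr1* (allergin-1) was higher in every KO library, with 30, 46 and 10 counts in WT and 57, 99 and 144 in KO (log2 fold change 1.96, edgeR adjusted p = 0.57), and *Lair1*, a collagen receptor, separated the groups with a log2 fold change of 0.31 (adjusted p = 0.997). The phosphatases and Dok adaptors that ITIM receptors recruit gave 7 tested genes of 8 around a median of 0.02. Among them *Dok2* had a log2 fold change of 0.68 (edgeR adjusted p = 0.80). *Ptpn6*, which encodes SHP-1 and binds Pirb, had 2534, 2792 and 1001 counts in WT and 2834, 2425 and 2095 in KO.

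Cell types known for these receptors were read from marker lists. Of 12 mast cell and basophil markers, 8 were at 0 in all libraries and 1 was tested, and their summed level was 0.979 to 12.9 CPM in WT and 2.42 to 7.98 CPM in KO. *Fcer1a* and *Mcpt8* were at 0, and *Ms4a2*, the IgE receptor beta chain, had 1 count in WT1. Of 11 natural killer cell markers, 8 were at 0, and the sum was 20.8 to 41.9 CPM in WT and 15.1 to 25.8 CPM in KO, most of it from *Nkg7*, a granule protein gene (30.0, 19.6 and 40.0 CPM in WT, 20.4, 13.6 and 14.7 CPM in KO). *Klrb1c*, which encodes NK1.1, went the other way at low counts, with 0, 1 and 6 in WT and 27, 8 and 10 in KO, and did not pass the filter. In CPM its groups overlapped, KO2 at 1.45 lying below WT3 at 1.85. The part of natural killer cells and mast cells in the members' levels was not tested.

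The 18 monocyte and macrophage markers summed to 417 to 593 CPM in WT and 454 to 517 CPM in KO, nearly all from *Lyz2*, and the 6 that passed the filter had a median log2 fold change of -0.39, which was 0.41 without WT3 and -1.20 without KO3, so it has no stable sign. The 18 granulocyte markers summed to 196, 316 and 170 CPM in WT and 457, 420 and 702 CPM in KO, and 4 of them were at 0 in all libraries (*Ly6g* and *Ltf* among them). The median log2 fold change over the 5 tested was 0.92, but 0.17 without KO3, 0.39 without WT3 and -0.16 without both. *Prtn3*, a primary granule protease, was the largest contributor to that sum in KO, with 405, 1150 and 280 counts in WT and 1503, 1688 and 1756 in KO (edgeR adjusted p = 0.065, DESeq2 adjusted p = 1.5e-06). The part of granulocyte precursors in the members' levels was not tested.

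B cell markers summed to 45.5 to 76.3 CPM in WT and 54.1 to 79.0 CPM in KO, T cell markers to 4.77 to 13.7 against 4.64 to 11.1 CPM, and dendritic cell markers to 165 to 225 against 135 to 217 CPM. Markers of megakaryocytes and platelets, which also carry Fcer1g, summed to 655 to 780 CPM in WT and 877 to 1040 CPM in KO. Of 12 such markers, *Gp6* and *Clec1b* were at 0 in all libraries. Of the 9 tested, 6 had estimates above 0 and 3 below. At an unadjusted p under 0.05 by edgeR, 3 were higher and 0 lower, where 2.94% of all genes tested were higher and 2.77% lower. Erythroid markers summed to 44.9 to 118 CPM in WT and 31.7 to 66.7 CPM in KO. Skeletal muscle markers, foreign to HSCs, summed to 168 to 414 CPM in WT and 10.3 to 39.7 CPM in KO. Of the 13 tested, 11 were lower in every KO library, where 6.15% of all genes tested were. At an adjusted p under 0.05, edgeR called 3 of them, among 9 genes in all, and DESeq2 called 9, among 120 in all. The source of this RNA in the WT libraries, and its bearing on the members' levels, was not tested.

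Poly(I:C) acts through type I interferon, and *Fcgr1* is known to be inducible by interferon, so 18 interferon-induced genes were read beside the members. Of the 17 tested, 8 had estimates above 0 and 9 below, with a median log2 fold change of -0.06, or -0.35 without KO3 and -0.17 without WT3, and none passed an unadjusted p of 0.05. *Mx1* was higher in every KO library at low counts (4, 13 and 8 in WT, 20, 16 and 20 in KO; edgeR adjusted p = 0.99), and *Bst2* was lower in every KO library (log2 fold change -0.39, adjusted p = 0.98).

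Genes that lie beside the members were tested because position played no part in the choice. Within 50000 bases of a member the tables hold 41 other genes, of which 17 were tested. None passed the adjusted test by edgeR or DESeq2, and none had an unadjusted p under 0.05. Of the 17, 1 separated the groups, *Tomm40l*, which was lower in KO (log2 fold change -0.38, edgeR adjusted p = 0.99). Among all genes tested, 6.15% were lower in every KO library and 6.25% higher, so nothing is read from that 1 gene. Around *Fcer1g*, the log2 fold change was 0.14 for *B4galt3*, -0.05 for *Ppox*, 0.34 for *Usp21* and 0.53 for *Pcp4l1*. Beside *Pirb*, the 5 tested genes included *Rps9* at -0.24 and *Mboat7* at 0.22, and beside *Fcgr1* the 4 tested were histone or unnamed genes with overlapping groups. *Fcgr2b*, *Fcgr3*, *Fcgr4* and *Syk* had no tested neighbour.

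The genes with the pattern most like *Fcer1g* over the 6 libraries, by Pearson r of log2 CPM among 11631 genes, were *Mcu* (r = 0.994), *Cdc42se1* (0.991), *Sdr42e1* (0.986), *Atp6v0d1* (0.985) and *Zmynd8* (0.982). For *Tyrobp* they were *Wdr76* (0.990), *Arhgef5* (0.983), *Atr* (0.982), *Gm15441* (0.980) and *Hectd2* (0.979). None of the other members was among them, but the Fcgr genes could not appear. The genes compared had to pass the filter and a further minimum of mean counts, which besides the adaptors only *Syk* and *Pirb* met among the members. With the group means taken out, the closest to *Fcer1g* were *Raver2* and *Ndufb2* (0.999 each), *Bcl9l*, *Wbp5* and *Btbd3*, and the closest to *Tyrobp* were *Bach2*, *Smad3*, *Fbxl19*, *Arhgef5* and *Ptbp2*. The 6 libraries share depth and composition between genes, and these values are a description without a test.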

How the data were processed

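Bulk RNA-seq of sorted HSCs was available as 1 table of read counts and 1 table of FPKM for 3 WT and 3 KO libraries. The deposited counts are whole reads per gene, not normalized; per the labels the RNA was amplified with SMART-Seq v4, without molecular identifiers, so counting limits cover counting error only. The study's methods name a TruSeq RNA kit for the bulk libraries instead, and which was used could not be settled. The submitters' processing notes name TopHat, HTSeq and mm10; the strand setting and annotation are not given in the sources used here. The FPKM values that the authors deposited are the counts over a gene length and the library total, with lengths that agree between libraries within 0.0703%. The authors' single-cell and ATAC-seq data were not analysed here.

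KO was set against WT by edgeR 4.0.16 under R 4.3.3 (filterByExpr, TMM, robust quasi-likelihood test, Benjamini-Hochberg adjustment over 12513 genes, threshold 0.05). CPM values are scaled by TMM. A symbol with several identifiers (59 symbols) was given to 1 of them. Coordinates are from GENCODE M21 (GRCm38), where 34344 of 34745 identifiers were found, and upstream sequences from RefSeq GRCm38.p6, where 7 of 8 members had an entry. Alternatives were DESeq2 1.42.0, upper-quartile scaling, no count filter, at least 10 counts in every library, the replicate number as a block, limma 3.58.1 on log2(FPKM + 1), filtered at a mean FPKM of 1 or unfiltered, and on log2(FPKM + 0.1), each library left out, and replicate 3 of both groups left out.

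The members and lists were chosen with earlier results of these data known. Genes named are the members, up to 4 genes per list with the smallest p among those with an unadjusted p under 0.05 or no overlap, tested neighbours of *Fcer1g* and of Fcgr genes, the 5 genes most like *Fcer1g* and *Tyrobp*, *Med23* and cell markers at 0 or at their highest. Others, such as *Lyn*, *Clec4e*, *Cd79b*, *Fcgrt*, *Ptpn6*, *Rps9* and *Mboat7*, were named for their role or place after their values were seen. Some genes that this rule names are not reported here.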

Additional observations from a re-analysis of the deposited data

How the results depend on the processing

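The count of genes called among all tested was 9 with edgeR, 120 with DESeq2, 15 with limma on log2(FPKM + 1) with its filter, and between 5 and 11 with libraries left out. At an unadjusted p under 0.05 it was 715, but 1350 without a count filter and 1192 with limma on FPKM without a filter. The cause of these differences was not tested. With libraries left out, estimates for genes beside the members changed sign, from -0.0804 to 0.307 for *B4galt3*, from -0.42 to 0.38 for *Ppox* and from -0.13 to 0.38 for *Nfkbid*. The count filter was applied anew in each fit, so the genes behind a list's median can differ between fits. Of the other pathway genes edgeR called 0 of 64, 1 of 89 without a count filter and 1 of 55 with at least 10 counts in every library. *Lat2* and *Clnk* passed the threshold with DESeq2, where their adjusted p was 0.0268 and 0.0489, and *Fyb* had an adjusted p between 3.02e-06 and 0.43 over 15 alternatives. WT and KO libraries share replicate numbers, but deviations of same-numbered libraries correlated at 0.134, 0.0267 and 0.13, so the numbers were not taken as pairs; each library correlated best with its own number, a hint from the data and not the design, and with the replicate block 5 genes were called. Depth limits the members with few reads: the estimates for *Fcgr2b* and *Fcgr3* changed sign with 1 library left out. The estimate for *Pirb* rests on 12 WT counts. *Fcgr1* allows only a ratio to a WT level set at 3 counts.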
